A study of Homo sapiens with 18 samples.

Results

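TXNIP, 3 arrestin-domain genes related to it (ARRDC2, ARRDC3 and ARRDC4) and the 3 transcription factor genes MLX, MLXIP and MLXIPL were followed in RNA-seq libraries of fat-loaded Hep3B cells. The 7 genes were chosen by name, as the glucose-sensing genes of the table, out of 36684 gene symbols, and all 7 were among the 14557 genes that passed the filter on low counts. They were chosen with results of these libraries known. The fall of ARRDC4 at the highest fucoxanthin dose against the model was in view, so that comparison is given as a description with no test, and which other values were in view is not recorded.

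Hep3B is a human hepatoma line. Each of the 6 groups held 3 libraries. Con cells received no free fatty acids (FFA), and Model cells received FFA to load them with lipid. FUCO-0.5, FUCO-1 and FUCO-2 cells received FFA together with fucoxanthin, a carotenoid of brown algae, at 0.5, 1 or 2 µM, and RES cells received FFA together with Resmetirom, an agonist of thyroid hormone receptor beta that served as the positive control drug. The Model, FUCO and RES groups thus shared the FFA load, which Con lacked, and every group came from this 1 line. The FFA concentration, the treatment times and the Resmetirom dose were not stated for these libraries.

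MLX is the common partner of MLXIP, also called MondoA, and of MLXIPL, also called ChREBP. These pairs of proteins respond to glucose 6-phosphate and related sugar phosphates, enter the nucleus and bind carbohydrate response elements, which are built from E-box-like repeats. TXNIP and ARRDC4 are the best known targets of MondoA. Their proteins restrain glucose uptake, and TXNIP also binds thioredoxin, while ChREBP is known in liver for driving glycolytic and lipogenic genes.

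The promoters of TXNIP and ARRDC4 are shown because both genes are known targets of these factors and moved across the groups. The sequences are the 250 bases before the transcription start, from RefSeq on GRCh38.p14, written 5′ to 3′ on the strand of the gene, and the capitals mark the motif found. In TXNIP, at chr1:145996580-145996829 on the minus strand, the capitals mark a pair of CACGNG repeats with 5 bases between them, a loose form of the carbohydrate response element in which N is any base, from 88 to 72 bases before the start. In ARRDC4, at chr15:97960453-97960702 on the plus strand, they mark an E-box, CACGTG, from 210 to 205 bases before the start.
TXNIP: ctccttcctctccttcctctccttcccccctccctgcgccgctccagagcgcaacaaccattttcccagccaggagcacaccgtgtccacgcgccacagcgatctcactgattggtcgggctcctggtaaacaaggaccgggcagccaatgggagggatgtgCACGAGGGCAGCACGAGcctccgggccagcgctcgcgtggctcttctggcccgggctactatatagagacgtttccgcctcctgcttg
ARRDC4: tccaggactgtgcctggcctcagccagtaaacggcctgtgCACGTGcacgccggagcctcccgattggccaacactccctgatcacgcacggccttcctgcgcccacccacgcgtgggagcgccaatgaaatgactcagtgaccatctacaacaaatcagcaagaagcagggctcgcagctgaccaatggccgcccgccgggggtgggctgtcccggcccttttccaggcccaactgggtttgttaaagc
Both motifs were searched on both strands, and a window can hold both. The search took whole promoter windows, which begin 250 bases before the start and may run past it. The longer motif was found in 20 of 35116 windows, or 0.0570%, and TXNIP was the 1 gene among the 7 with it, in 1 of its 2 windows. CACGTG was found in 2548 windows, or 7.26%, among them those of ARRDC4 and MLX. A match is a description of the letters and does not show binding.

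TXNIP lies on chromosome 1 from 145992435 to 145996579 on the minus strand, ARRDC4 on chromosome 15 from 97960703 to 97973833 on the plus strand, ARRDC3 on chromosome 5 from 91368631 to 91383317 on the minus strand and ARRDC2 on chromosome 19 from 18001124 to 18014102 on the plus strand. MLX lies on chromosome 17 from 42567100 to 42573203, and MLXIP on chromosome 12 from 122078756 to 122147344, both on the plus strand. MLXIPL lies on chromosome 7 from 73593202 to 73647907 on the minus strand. TXNIP, ARRDC4 and MLXIP overlap no other annotated gene. ARRDC3 overlaps its antisense gene ARRDC3-AS1, MLX overlaps PSMC3IP on the opposite strand, MLXIPL overlaps a long noncoding RNA gene on its own strand and ARRDC2 an unconfirmed transcript on the opposite strand. Whether the counting used strand was not stated, so reads of these pairs may not be separable. ARRDC3-AS1 held 9 to 20 counts in the 15 libraries outside RES and 33 to 36 with RES. PSMC3IP held 160 to 243 counts outside RES and 251 to 340 with RES.

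Library totals ran from 16916688 to 23083498 counts. All 9 hepatocyte markers, among them ALB, APOB and HNF4A, were above 10 CPM (counts scaled to a fixed library total) in every library, while summed markers reached at most 34.2 CPM for fibroblasts, 1.90 CPM for endothelium and 13.6 CPM for immune cells. The hepatocyte markers themselves differed between groups. Summed, they held 59130 to 65736 CPM in Con, 50609 to 51452 in Model and 16330 to 16708 with RES. The sums were 43857 to 53667 in FUCO-0.5, 45769 to 48346 in FUCO-1 and 35517 to 40245 in FUCO-2. The FUCO-1 and FUCO-2 libraries thus lay below those of Model. Against Model, 8 of the 9 were lower and 1 higher with RES by edgeR, from AFP at −4.72 on the log2 scale and ALB at −2.17 to FGB at 0.42. The RES libraries also stood apart on the first principal component, at 61.6 to 64.3 against at most 0.297 in the others. The part of these shifts in the rises of TXNIP and the arrestin-domain genes with RES was not tested. Their part in the falls of TXNIP, ARRDC3 and ARRDC4 with fucoxanthin was not tested either. The library Con replicate 1 stood apart from the other Con libraries in TXNIP and ARRDC4. Its TXNIP level was 27.9% and its ARRDC4 level 19.6% of the mean of Con replicates 2 and 3, while ARRDC3 stood at 138%, MLX at 125%, ARRDC2 at 102%, MLXIP at 98.8% and MLXIPL at 95.2% of that mean. Only 13 of 13004 genes, or 0.10%, had a ratio as low as that of TXNIP or lower. The cause was not tested, and results that rest on Con are given with and without this library.

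In the comparison of Model with Con, which asks what the fat load did, 1 of the 7 genes passed the test, MLXIPL, which was lower. Over all genes tested, 8.43% were called higher and 9.12% lower. Calls were made with edgeR's quasi-likelihood test at a Benjamini-Hochberg adjusted p under 0.05 over all genes. Where no member was called in a direction in this or the other comparisons with Con or Model, the count by edgeR at an unadjusted p under 0.05 and the count by DESeq2 were 0 in that direction as well. Values are CPM after TMM normalization. The marker levels and marker sums above are scaled to library totals alone, while the log2 values beside them come from the TMM-normalized fit.

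The comparisons with Model ask what each treatment did on top of the fat load, and they share the 3 Model libraries. At FUCO-0.5, ARRDC3 was called lower and no member was called higher, against 1.16% of all genes lower and 0.289% higher. At FUCO-1, ARRDC3 and TXNIP were called lower, against 2.32% of all genes lower and 0.893% higher. Both also fell by more than 1 on the log2 scale, as 0.453% of all genes did. At FUCO-2, the libraries of 4 of the 7 genes did not overlap those of Model, where 36.3% of all genes did not overlap, and nothing is read from that count since the choice of genes used this comparison. With RES, TXNIP, ARRDC2, ARRDC3 and ARRDC4 rose and no member fell, against 24.4% of all genes higher and 25.1% lower. The shift of the hepatocyte markers with RES stands beside these rises. For 3 of them, all but ARRDC2, the rise was over 1 on the log2 scale, which 3.0% of all genes showed.

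The comparisons with Con share the 3 Con libraries. FUCO-0.5 had ARRDC3 and MLXIPL lower, against 11.4% of all genes lower and 10.4% higher. FUCO-1 had TXNIP, ARRDC3 and MLXIPL lower, against 10.1% lower and 8.22% higher, and TXNIP and ARRDC3 fell by more than 1 on the log2 scale, as 1.20% of all genes did. FUCO-2 had TXNIP, ARRDC3, ARRDC4 and MLXIPL lower and MLXIP higher, where 11.9% of all genes were lower and 13.0% higher. Of these, TXNIP and ARRDC4 lay lower by more than 1, as 1.36% of all genes did. Nothing is read from the counts at FUCO-2, since values of these FUCO-2 libraries were in view when the genes were chosen. RES had TXNIP, ARRDC3 and ARRDC4 higher and MLXIPL lower, against 28.8% higher and 28.5% lower, and the 3 rises were all over 1, where 4.90% of all genes rose that far.

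Between neighbouring doses, 0 of the 7 genes were called for FUCO-1 against FUCO-0.5, where 0.00687% of all genes were called. At an unadjusted p under 0.05 the edgeR count was also 0, as was the DESeq2 count. For FUCO-2 against FUCO-1, 0 members were called by edgeR and 0 by DESeq2, against 6.30% of all genes, and 3 members were at an unadjusted p under 0.05. These counts include ARRDC4, whose FUCO-2 values were in view when the genes were chosen, so nothing is read from them.

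**Figure D1:**
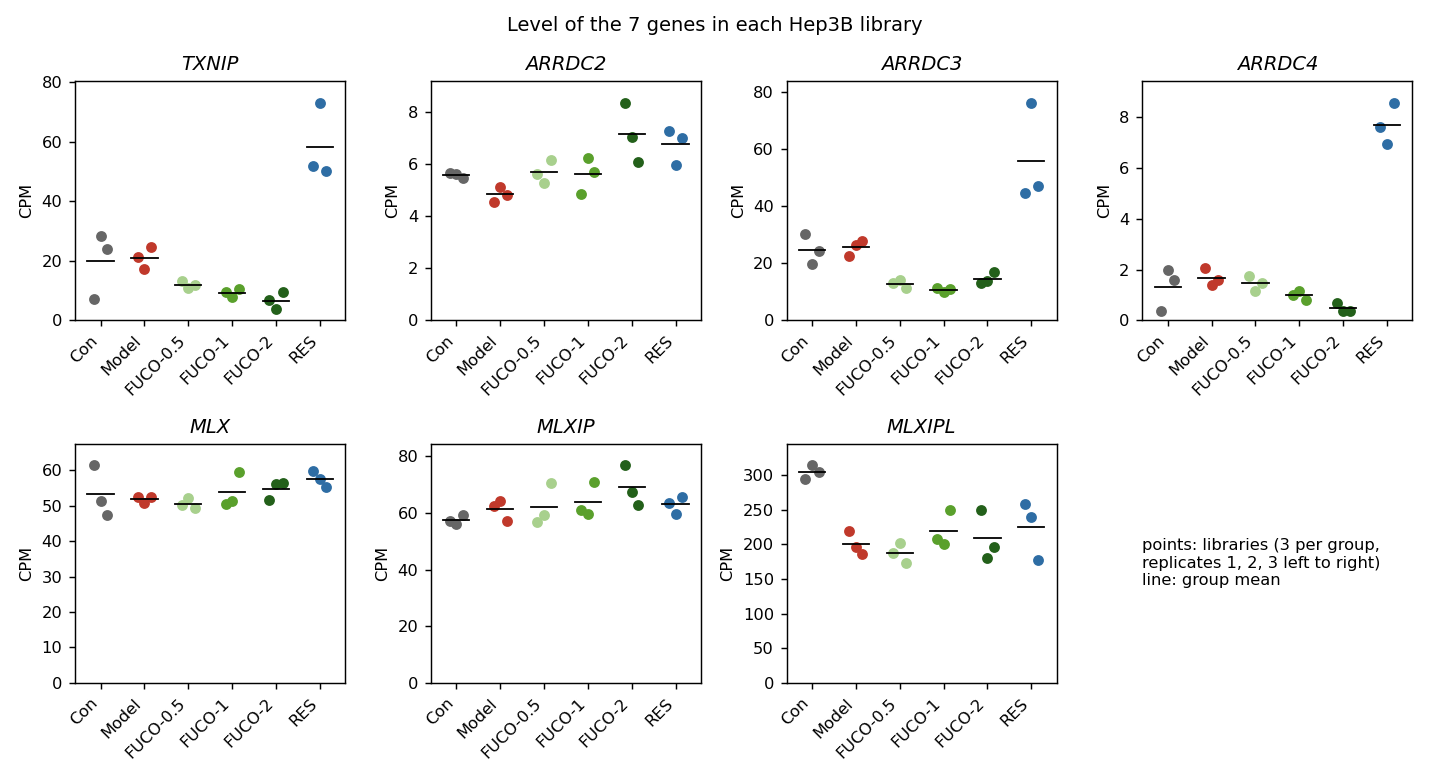
Level of each of the 7 genes in CPM (vertical axes, from 0) in every library of the 6 groups, with points for libraries and a line for each group mean. TXNIP, ARRDC3 and ARRDC4 were highest in the 3 RES libraries, MLXIPL was highest in Con, and Con replicate 1 lay at 7.28 CPM of TXNIP beside 28.2 and 24.0 in the other Con libraries.

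Compared per length, as CPM per kilobase of exon (RPKM) averaged over the 18 libraries, the level of MLXIPL was 46.5 and that of MLX 12.6. TXNIP stood at 5.87, ARRDC3 at 4.81 and MLXIP at 4.53 RPKM, with ranges over libraries that overlapped. ARRDC2 at 1.28 and ARRDC4 at 0.558 RPKM were the lowest. The range across groups followed another order. The highest group mean in CPM was 16.4 times the lowest for ARRDC4, 8.80 times for TXNIP and 5.19 times for ARRDC3, and 1.62 times for MLXIPL, 1.48 times for ARRDC2, 1.20 times for MLXIP and 1.14 times for MLX.

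MLX and MLXIP varied least across the groups. MLX, the shared partner of the factors, had group means from 50.5 ± 1.35 CPM (SD, n = 3) in FUCO-0.5 to 57.5 ± 2.22 in RES, and each group's libraries overlapped those of the next group in the order RES, FUCO-2, FUCO-1, Con, Model and FUCO-0.5. Its difference between RES and Model was 0.15 on the log2 scale, with a 95% interval from −0.02 to 0.32 and an adjusted p of 0.145 (edgeR). Fitting those groups alone gave an adjusted p of 0.0214, and RES against Con moved from 0.11 (adjusted p = 0.267) to 0.22 (adjusted p = 0.0241) without Con replicate 1.

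MLXIP, the gene of MondoA, ranged from 57.6 ± 1.57 CPM in Con to 69.0 ± 7.08 in FUCO-2, and neighbouring groups overlapped throughout. FUCO-2 lay above Con by a log2 value of 0.26 (SE 0.089, adjusted p = 0.0339, edgeR). That call was lost with those groups alone (adjusted p = 0.0745) and without Con replicate 1 (0.0565), 2 (0.0954) or 3 (0.0550) or FUCO-2 replicate 1 (0.168) or 2 (0.0538). RES against Model differed by 0.04, with a 95% interval from −0.13 to 0.21.

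MLXIPL, the gene of ChREBP, was at 304 ± 10.1 CPM in Con and at 201 ± 16.7 in Model. All 3 Con libraries lay above every other library. The other groups had means of 187 ± 14.2 in FUCO-0.5, 219 ± 26.0 in FUCO-1, 209 ± 36.9 in FUCO-2 and 225 ± 42.2 in RES, each overlapping its neighbour in the order. Model against Con was −0.60 on the log2 scale (SE 0.12, adjusted p = 9.00e-04, edgeR), or 66.1% of the Con mean. Without Con replicate 1 it was −0.62 (adjusted p = 0.00107, edgeR). Each treated group also lay below Con, from −0.70 in FUCO-0.5 (adjusted p = 1.36e-04) to −0.43 in RES (adjusted p = 0.00306), with the edgeR test. In bulk RNA, fewer cells of a kind and less RNA per cell cannot be told apart. Against Model, the intervals of FUCO-0.5, FUCO-1 and RES took in 0, with 0.16 for RES (−0.07 to 0.40). FUCO-2 stood at 0.06, given with no test, and at −0.10 without FUCO-2 replicate 1. Without RES replicate 3 the RES value was 0.31 (adjusted p = 0.0282, edgeR).

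TXNIP, the thioredoxin-interacting protein, held 21.2, 17.3 and 24.7 CPM in the Model libraries and 7.28, 28.2 and 24.0 in Con. In FUCO-0.5 it held 13.3, 10.7 and 11.7 CPM, in FUCO-1 9.36, 7.92 and 10.4, and in FUCO-2 6.68, 3.73 and 9.49. All 9 fucoxanthin libraries lay below all 3 Model libraries. RES stood at the other end, with 51.8, 73.1 and 50.1 CPM, above every other library. The group means ran from RES (58.4 ± 12.8) through Model (21.1 ± 3.70), Con (19.8 ± 11.1), FUCO-0.5 (11.9 ± 1.32) and FUCO-1 (9.23 ± 1.24) to FUCO-2 (6.63 ± 2.88). Model overlapped Con, Con overlapped FUCO-0.5 and FUCO-1 overlapped FUCO-2, while RES and Model, and FUCO-0.5 and FUCO-1, did not overlap.

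Against Model, TXNIP rose to 2.77 times with RES, or 1.47 on the log2 scale (SE 0.27, adjusted p = 7.06e-05, edgeR). With FUCO-1 it fell to 43.8% of Model, −1.19 on the log2 scale (SE 0.30, adjusted p = 0.0252, edgeR). This call was lost with DESeq2 (adjusted p = 0.0705) and in edgeR fits without Model replicate 1 (0.0737) or 3 (0.127) or FUCO-1 replicate 1 (0.0810), 2 (0.102) or 3 (0.0717). At FUCO-0.5 the value was −0.83 (SE 0.29, adjusted p = 0.223, edgeR), and it did not pass with DESeq2 (adjusted p = 0.437). It passed the edgeR test without Con replicate 1 (adjusted p = 0.0164), with those groups alone (5.04e-04) and with no filter on low counts (1.34e-10). The fold change was −0.83 to −0.82 in these fits, so the lower p did not come from a larger change. Con enters this comparison only through the spread that the 6 groups share. At FUCO-2 TXNIP stood at 31.5% of Model, −1.68 on the log2 scale, given with no test.

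The difference between Model and Con in TXNIP was 0.09 (SE 0.28, adjusted p = 0.869, edgeR) and turned to −0.31 (adjusted p = 0.292) without Con replicate 1. Against Con, RES was higher by 1.55 (adjusted p = 2.72e-05), FUCO-1 lower at −1.10 (adjusted p = 0.0123) and FUCO-2 lower at −1.59 (adjusted p = 6.45e-04), all by edgeR. Without Con replicate 1 these were 1.16, −1.5 and −1.98, and FUCO-0.5 passed as well, at −1.13 (adjusted p = 2.21e-04, edgeR) in place of −0.74 (0.0753). The FUCO-1 call against Con was lost without Con replicate 2 (−0.77, adjusted p = 0.121) or 3 (−0.94, 0.0699) or FUCO-1 replicate 2 (−1.01, 0.0574). FUCO-2 against Con rests on FUCO-2 libraries whose values were in view when the genes were chosen, so its p is not independent of that choice.

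ARRDC4, an arrestin-domain protein that, like TXNIP, restrains glucose uptake, had few reads. It held 38, 25 and 29 counts in Model, 6, 33 and 29 in Con, 32, 22 and 26 in FUCO-0.5, 20, 21 and 14 in FUCO-1 and 12, 7 and 6 in FUCO-2. The RES libraries held 189, 129 and 184 counts and lay apart from all others. In CPM the means were 7.72 ± 0.823 in RES, 1.68 ± 0.360 in Model, 1.45 ± 0.303 in FUCO-0.5, 1.30 ± 0.846 in Con, 0.979 ± 0.174 in FUCO-1 and 0.470 ± 0.192 in FUCO-2. Model, FUCO-0.5, Con and FUCO-1 overlapped their neighbours in this order, and RES and FUCO-2 did not overlap the groups next to them.

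RES raised ARRDC4 to 4.59 times Model, 2.20 on the log2 scale (SE 0.26, adjusted p = 1.58e-07, edgeR). Of the 7 genes it had the largest rise. At FUCO-0.5 the log2 difference from Model was −0.21 (adjusted p = 0.880, edgeR) and at FUCO-1 −0.77 (95% interval −1.46 to −0.09, adjusted p = 0.262, edgeR), and neither passed. At FUCO-2 ARRDC4 stood at 28.0% of Model, −1.83 on the log2 scale, and that value was −2.20 without FUCO-2 replicate 1. It was the difference in view when the genes were chosen and has no test.

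Against Con, ARRDC4 was higher with RES by 2.57 (adjusted p = 1.79e-08, edgeR). With FUCO-2 it stood at −1.45 (SE 0.43), a description only, since the FUCO-2 values of ARRDC4 were in view when the genes were chosen. Without Con replicate 1, whose 6 counts were among the lowest, the values were 2.13 and −1.89, and FUCO-1 passed at −0.84 (adjusted p = 0.0360, edgeR) in place of −0.40 (0.504). Leaving out 1 library at a time, the FUCO-2 value ran from −1.89 to −1.04.

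**Figure D2:**
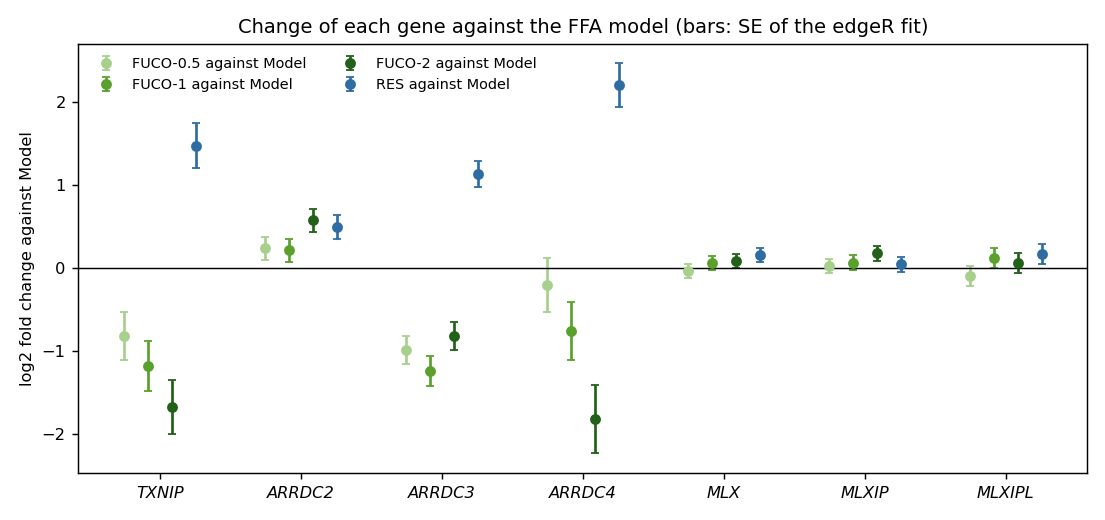
Log2 fold change of each of the 7 genes against Model (vertical axis) for the 3 fucoxanthin doses and RES, with bars for the SE of the edgeR fit. ARRDC4, TXNIP and ARRDC3 lay at 2.20, 1.47 and 1.13 with RES and below 0 at each dose of fucoxanthin, where ARRDC4 at FUCO-0.5 and FUCO-1 and TXNIP at FUCO-0.5 did not pass the test and FUCO-2 has none.

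ARRDC3 encodes an arrestin-domain protein that helps direct membrane receptors to ubiquitin ligases. It held 22.5, 26.4 and 27.6 CPM in Model and 30.1, 19.7 and 24.1 in Con. The fucoxanthin libraries held 13.2, 14 and 11.3 in FUCO-0.5, 11.2, 9.89 and 11.1 in FUCO-1 and 12.9, 13.6 and 17 in FUCO-2. All 9 lay below every Con and Model library, and the 3 RES libraries, at 44.4, 76.1 and 46.9 CPM, above every one of them. The order of means was RES (55.8 ± 17.6), Model (25.5 ± 2.63), Con (24.6 ± 5.23), FUCO-2 (14.5 ± 2.16), FUCO-0.5 (12.8 ± 1.36) and FUCO-1 (10.7 ± 0.739). Model overlapped Con and FUCO-2 overlapped FUCO-0.5.

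Unlike TXNIP and ARRDC4, whose lowest mean was at FUCO-2, ARRDC3 had its lowest at FUCO-1. The step from FUCO-1 to FUCO-2 was 0.43 for ARRDC3 (95% interval 0.07 to 0.79, adjusted p = 0.180) and −0.48 for TXNIP (−1.15 to 0.18, adjusted p = 0.466), and neither passed edgeR's test. ARRDC4 differed by −1.06, given with no test since its FUCO-2 values were in view. A difference in this step between the genes was not tested. ARRDC3 was 50.4% of Model at FUCO-0.5 (log2 −0.99, SE 0.17, adjusted p = 0.00151, edgeR) and 42.1% at FUCO-1 (−1.25, SE 0.18, adjusted p = 7.38e-05, edgeR), and 56.9% at FUCO-2 (−0.82, no test). With RES it rose by 1.13 (SE 0.16, adjusted p = 2.48e-06, edgeR). The calls at FUCO-0.5, at FUCO-1 and with RES held in all 24 alternative fits. Model and Con differed by 0.05 (95% interval −0.27 to 0.37).

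**Figure D3:**
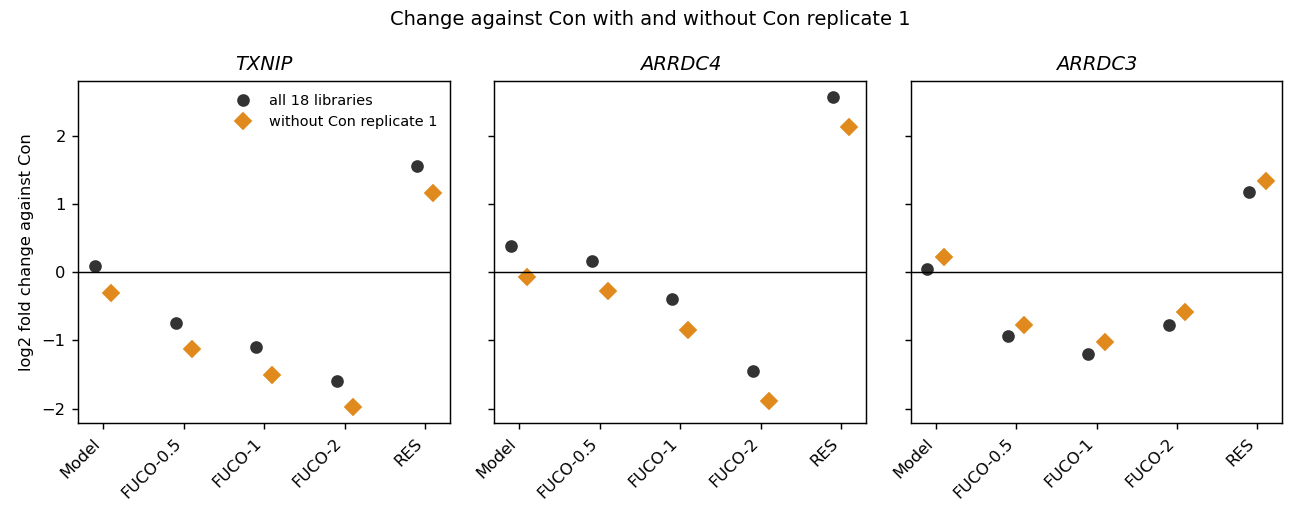
Log2 fold change against Con (vertical axis) of TXNIP, ARRDC4 and ARRDC3 for the other 5 groups, from all 18 libraries (circles) and without Con replicate 1 (diamonds). Leaving out that library lowered every TXNIP and ARRDC4 value and raised every ARRDC3 value, and TXNIP in Model moved from 0.09 to −0.31.

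ARRDC2, a related arrestin-domain gene, was at 4.55, 5.12 and 4.82 CPM in Model and at 5.66, 5.61 and 5.46 in Con. It held 7.27, 5.98 and 7 CPM with RES and 8.35, 7.03 and 6.07 with FUCO-2, above all Model libraries in both. Its order differed from that of TXNIP, with means of 7.15 ± 1.14 in FUCO-2, 6.75 ± 0.681 in RES, 5.67 ± 0.434 in FUCO-0.5, 5.60 ± 0.694 in FUCO-1, 5.58 ± 0.105 in Con and 4.83 ± 0.283 in Model. Con and Model did not overlap, and the other neighbours did. RES against Model was 0.49 (SE 0.14, adjusted p = 0.00536, edgeR), and FUCO-2 against Model was 0.57 with no test. FUCO-2 against Con was 0.36 (adjusted p = 0.0620, edgeR), which passed without FUCO-2 replicate 3 (0.46, adjusted p = 0.0272), and RES against Con was 0.28 (adjusted p = 0.0850), which passed without RES replicate 2 (0.36, adjusted p = 0.0489).

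Other targets of ChREBP and MondoA were taken from a list of 25 genes, of which 23 were tested. With RES, 16 of them were lower than in Model and 4 higher, with a median log2 fold change of −0.72, against 25.1% lower, 24.4% higher and a median of 0.0023 over all genes, while TXNIP and ARRDC4 rose. PKLR, the liver pyruvate kinase and a classic ChREBP target, fell from 42.6 ± 3.93 to 3.01 ± 0.916 CPM (log2 −3.84, SE 0.23, adjusted p = 1.13e-12, edgeR). ME1, the malic enzyme, which thyroid hormone is also known to raise, went from 36.5 ± 2.04 to 151 ± 10.5 CPM (log2 2.04, adjusted p = 3.82e-13, edgeR). Of the 19 listed genes with a promoter in the table, 4 held CACGTG, among them PKLR, and 0 held the longer motif.

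At FUCO-1, where TXNIP fell, 3 of the 23 targets were lower than in Model and 0 higher by edgeR (0 also at an unadjusted p under 0.05 and by DESeq2), against 2.32% and 0.893% of all genes, with a median of 0.02 against −0.0017. KLF10, a zinc-finger factor, fell from 127 ± 9.42 to 58.0 ± 5.15 CPM (log2 −1.13, adjusted p = 1.52e-07, edgeR), and ELOVL6, a fatty acid elongase, from 110.2 ± 1.41 to 80.1 ± 4.55 (log2 −0.46, adjusted p = 0.00142, edgeR). Model against Con had 4 targets higher and 7 lower, against 8.43% and 9.12% of all genes, with a median of 0.00. Among these, ACLY, which makes cytosolic acetyl-CoA, was lower by edgeR (log2 −1.12, adjusted p = 4.87e-08) and TM6SF2, a lipid transport gene, higher (0.95, adjusted p = 0.00298). FUCO-2 against Con had 6 higher and 9 lower, against 13.0% and 11.9% of all genes, with a median of −0.36 against 0.01. There SCD, the stearoyl-CoA desaturase, fell from 7105 ± 790.0 to 2835 ± 44.1 CPM (log2 −1.33, adjusted p = 7.53e-11, edgeR), and FGF21, a hepatokine, was higher by 1.29 (adjusted p = 0.00284, edgeR).

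**Figure D4:**
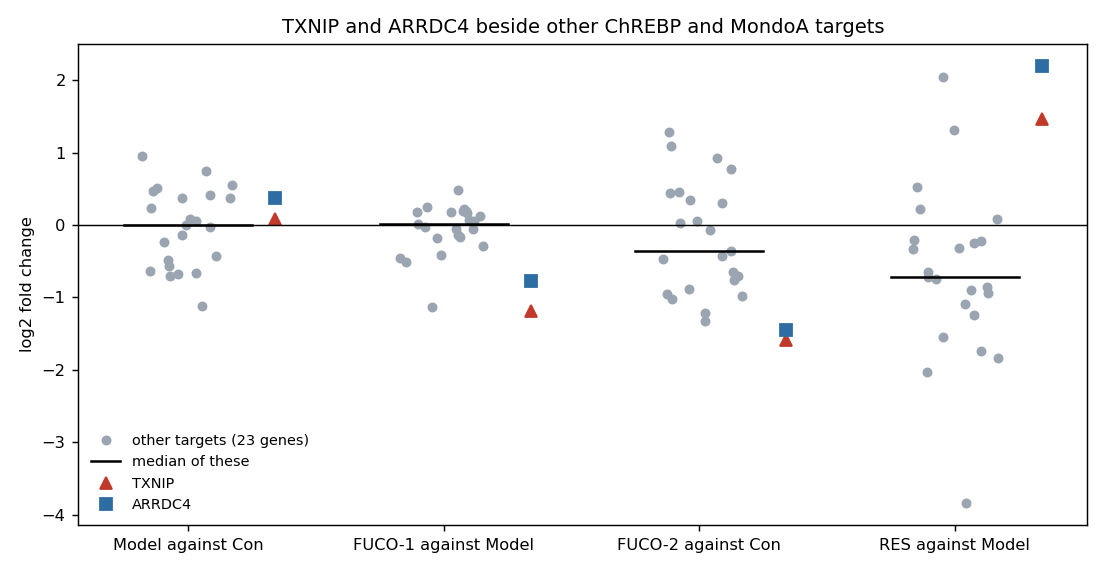
Log2 fold change (vertical axis) of the 23 other ChREBP and MondoA targets (grey points, with their median as a line) beside TXNIP (triangle) and ARRDC4 (square) in 4 comparisons. With RES the median of the list was −0.72 while TXNIP and ARRDC4 lay at 1.47 and 2.20.

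Glucose uptake and phosphorylation, the step that TXNIP and ARRDC4 restrain and that feeds the sugar-phosphate signal, was followed through 15 genes, of which 11 were tested. With RES, 7 were higher than in Model and 1 lower, against 24.4% and 25.1% of all genes, with a median of 0.52 against 0.0023. HKDC1, a hexokinase-like gene, went from 24.0 ± 2.00 to 46.9 ± 4.52 CPM (log2 0.97, adjusted p = 6.72e-06, edgeR), and SLC2A12, a glucose transporter, from 0.931 ± 0.178 to 1.80 ± 0.231 (0.95, adjusted p = 0.00958, edgeR). At FUCO-1, 1 was higher than in Model, GPI, the phosphoglucose isomerase (0.37, adjusted p = 0.0118, edgeR), and 0 were lower (2 at an unadjusted p under 0.05 and 0 by DESeq2), against 0.893% and 2.32% of all genes. Model against Con had 1 higher and 2 lower, against 8.43% and 9.12%, among them the transporter SLC2A10 (1.70, adjusted p = 9.75e-06, edgeR) and hexokinase HK2, which fell from 175 ± 33.7 to 92.2 ± 5.02 CPM (log2 −0.93, adjusted p = 9.90e-07, edgeR). FUCO-2 against Con had 5 higher and 0 lower by edgeR (1 at an unadjusted p under 0.05 and 0 by DESeq2), against 13.0% and 11.9% of all genes, among them HKDC1 (1.44, adjusted p = 7.84e-08, edgeR) and SLC2A10 (0.73, adjusted p = 0.0373, edgeR).

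TXNIP and the arrestin-domain genes are also known to respond to glucocorticoids and FOXO factors, and 13 such targets were tested. At FUCO-1, 2 were lower than in Model and 1 higher, against 2.32% and 0.893% of all genes, with a median of −0.11. The 1 higher was DDIT4 (log2 0.59, adjusted p = 0.00519, edgeR). Besides DDIT4 and the 2 lower genes, none of the list was called, FKBP5, PER1 and SGK1 included. CITED2 fell from 109.6 ± 4.90 to 40.4 ± 2.70 CPM (log2 −1.44, adjusted p = 4.35e-10, edgeR) and TSC22D3, the glucocorticoid-induced leucine zipper, from 24.1 ± 2.54 to 9.51 ± 0.388 (−1.34, adjusted p = 4.42e-08, edgeR). Both were also lower in FUCO-2 than in Con, at −0.94 and −0.91, where 7 of the list were lower and 2 higher, against 11.9% and 13.0% of all genes. With RES, 8 were lower than in Model and 3 higher, against 25.1% and 24.4% of all genes, with a median of −0.59. KLF9, known as a target of both glucocorticoids and thyroid hormone, went from 9.65 ± 0.383 to 41.4 ± 3.51 CPM (log2 2.10, adjusted p = 2.12e-14, edgeR), and ZBTB16 from 10 ± 1.06 to 1.03 ± 0.214 (−3.27, adjusted p = 7.64e-12, edgeR). Model against Con had 4 higher and 3 lower, against 8.43% and 9.12% of all genes, among them SGK1 (0.93, adjusted p = 6.71e-04) and KLF15 (−0.83, adjusted p = 7.08e-05), both by edgeR.

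The genes whose group pattern was most like that of TXNIP were found among 13076 genes by the root mean square difference of their group means over the 6 groups, on a log2 scale centred for each gene. FGA was closest at 0.28, followed by ARRDC4 at 0.30, FGG at 0.33, ARRDC3 at 0.39 and MIR3189 at 0.43. FGA and FGG encode fibrinogen chains, and FGA had means of 278 CPM in Con, 209 in Model, 176, 150.4 and 114 at the rising fucoxanthin doses and 676 with RES. MIR3189 lies within GDF15, so its reads may be those of the host gene. For ARRDC4 the closest were ELOVL4 at 0.29, TXNIP at 0.30, KLF9 at 0.32, UGT2B11 at 0.33, whose close paralogs may share reads, and FGA at 0.34. ARRDC3 ranked 26 for ARRDC4 at 0.52, and ARRDC2 was at 1.01 from TXNIP and 0.96 from ARRDC4. The 6 groups include FUCO-2 and Model, whose ARRDC4 values were in view when the genes were chosen. The closeness of ARRDC4 to TXNIP is thus a description only. Before taking logs 0.5 CPM was added, close to the FUCO-2 mean of ARRDC4 (0.470 CPM), which narrows the range of that gene.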

How the data were processed

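RNA-seq of poly(A) RNA from 18 Hep3B libraries was used, 3 biological replicates in each of 6 groups, assigned by their titles. The authors trimmed reads with fastp, aligned with STAR to GRCh38.p14 and deposited featureCounts counts per gene without normalization. Handling of strand and multiply mapped reads is not given in the sources used here. With edgeR 4.0.16 in R 4.3.3, genes were filtered by filterByExpr (minimum count 10, minimum total 15), TMM-normalized and fitted in 1 quasi-likelihood model with 1 term per group. A call was a Benjamini-Hochberg adjusted p under 0.05 over 14557 genes. The study's rule also asks for an absolute log2 fold change over 1. DESeq2 1.42.0 was an alternative. RPKM used GENCODE v44 exon unions, and positions and promoters came from RefSeq. The members and lists were chosen with earlier results of these data known. Genes named beside the 7 are the 5 nearest patterns to TXNIP and to ARRDC4 among genes of at least 1 CPM (prior 0.5 CPM), and the 2 called genes of each list with the largest change in 4 comparisons. ARRDC3-AS1, PSMC3IP, GDF15 and the cell type markers are named as checks. DDIT4, FKBP5, PER1 and SGK1 are named at FUCO-1 to show the rest of their list. On simulated counts for Model against Con (14557 genes), edgeR recovered 100 of 100 genes changed 4-fold and 99 of 100 changed 2-fold, with 15 false calls. The changed genes were drawn above a minimum mean count, and no library was made to stand apart as Con replicate 1 did. Recovery for genes as sparse as ARRDC4 outside RES was not measured separately.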

Additional observations from a re-analysis of the deposited data

How the results depend on the processing

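Of 1477 tested member values under 24 alternative fits, 1422 kept their direction and side of the threshold, 20 lost a call, 13 gained one and 22 changed sign, all of them uncalled. Of 167 values for FUCO-2 against Model, which has no test, 1 changed sign (MLXIPL, −0.10 without FUCO-2 replicate 1) and 1 moved by more than the spread. Every sign change came from leaving out 1 library, and their cause was not tested. Leaving out 1 library at a time, log2 fold changes for Model against Con ran from −0.31 to 0.42 for TXNIP, −0.09 to 0.22 for ARRDC3, −0.07 to 0.78 for ARRDC4 and −0.12 to 0.07 for MLX. Against Model, MLXIP ran from −0.08 to 0.08 at FUCO-0.5, −0.02 to 0.10 at FUCO-1 and −0.01 to 0.08 with RES, and MLX from −0.03 to 0.10 at FUCO-1. Against Con at FUCO-0.5, ARRDC2 ran from −0.04 to 0.07, ARRDC4 from −0.28 to 0.57 and MLX from −0.16 to 0.04. At FUCO-1 the ranges were −0.08 to 0.10, −0.84 to 0.01 and −0.06 to 0.13, and for MLX at FUCO-2 −0.04 to 0.16. The number of members called ran from 1 to 2 for FUCO-0.5 and for FUCO-1 against Model, from 2 to 3 for FUCO-0.5, 2 to 4 for FUCO-1 and 3 to 5 for FUCO-2 against Con, and from 4 to 5 for RES against Model and against Con. Requiring a log2 fold change over 1 as well left 0 members for Model against Con, 0 for FUCO-0.5 against Model, 0 for FUCO-0.5 against Con and 2 for FUCO-2 against Con. With no filter on low counts, FUCO-0.5 against Model had 2 and FUCO-2 against FUCO-1 had 2. With the compared groups only, FUCO-0.5 against Model had 2 and FUCO-2 against Con had 3, and with DESeq2 FUCO-1 against Model had 1. With the replicate block, TXNIP at FUCO-1 against Model had an adjusted p of 0.0196 and 2 members were called there, and the block changed no call of the 7 genes. Of 45 same-numbered pairs, 7 correlated above 0.1 (−0.204 to 0.194). Pairs of different number were not set beside them, so whether replicate numbers pair the samples was not tested. ARRDC4 had no value where 10 counts were required in every library. Its 6 to 38 counts outside RES limit its precision.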

Other observations

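In the thioredoxin system, whose thioredoxin TXNIP binds, 13 genes were tested. With RES, 4 were higher and 3 lower than in Model, near the 24.4% and 25.1% of all genes, with a median log2 fold change of −0.07 against 0.0023. SRXN1, a sulfiredoxin, went from 3.88 ± 0.584 to 13.1 ± 2.72 CPM (SD, n = 3; log2 1.75, edgeR adjusted p = 5.45e-07), and TXNRD1, the cytosolic thioredoxin reductase, from 252 ± 8.46 to 564 ± 41.2 (1.16, edgeR adjusted p = 1.32e-09). FUCO-2 against Con had 4 higher and 1 lower (13.0% and 11.9% of all genes), again with SRXN1 (1.36) and TXNRD1 (0.98) called. Model against Con had 3 higher and 0 lower by edgeR, against 8.43% and 9.12% of all genes. The count lower was also 0 at an unadjusted p under 0.05 and by DESeq2. TXNRD1 (0.40) and PRDX4 (0.38) were among the 3. At FUCO-1 against Model, 0 of the 13 were called higher and 0 lower by edgeR, against 0.893% and 2.32% of all genes. At an unadjusted p under 0.05, 3 were higher and 1 lower, and DESeq2 called 0 higher and 1 lower.

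Among 8 tested genes for other arrestins and for ubiquitin ligases that arrestin-domain proteins recruit, RES had 2 higher and 3 lower than Model, where 24.4% and 25.1% of all genes were, with ARRB1 (−0.75, edgeR adjusted p = 8.86e-06) and WWP1 (−0.52, edgeR adjusted p = 6.58e-06) the most changed. NEDD4 was higher and NEDD4L lower in Model than in Con (0.54 and −0.29), where 8.43% and 9.12% of all genes were. They moved the same way in FUCO-2 against Con (0.85 and −0.29). There 2 were higher and 1 lower in all, against 13.0% and 11.9% of all genes. At FUCO-1 against Model 0 were called by edgeR, where 0.893% of all genes were higher and 2.32% lower. At an unadjusted p under 0.05, 1 was higher and 2 lower, and DESeq2 called 0. The MAX network shares partners with MLX. Of its 8 tested genes, 2 were higher and 1 lower in Model than in Con by edgeR, against 8.43% and 9.12% of all genes. MYC (0.60, edgeR adjusted p = 6.82e-04) and MXD4 (0.47) were the 2 higher. At FUCO-1, 1 was lower than in Model and 0 higher by edgeR, against 2.32% and 0.893% of all genes. The count higher was also 0 at an unadjusted p under 0.05 and by DESeq2. The 1 gene lower was MYC, from 333 ± 10.8 to 195 ± 12.2 CPM (−0.77, edgeR adjusted p = 1.68e-04). With RES, 2 were higher and 2 lower than in Model, against 24.4% and 25.1% of all genes. Among these, MXD4 fell (−1.03, edgeR adjusted p = 3.51e-09) and MXI1 rose (0.78, edgeR adjusted p = 1.72e-04). FUCO-2 against Con had 2 higher and 2 lower, against 13.0% and 11.9% of all genes, among them MXI1 (0.72) and MXD1 (−0.40).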
